A study of Homo sapiens with 6 samples.

Results

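The short arm of chromosome 12 was examined gene by gene in a bladder cancer line selected for resistance to pirarubicin and in its parent. Its members were the 365 rows of the annotated expression table that lie on chromosome 12, start below 35000000 and carry 1 gene symbol, out of 26515 rows with 1 symbol in all. They gave 355 genes out of 24930 tested, because 10 rows were a further transcript cluster of a gene read from another cluster. For 9 of these genes the cluster used was the brighter one. The row of MIR1244-1 on the arm had the same values as the row used, on chromosome 5, with a difference of -1.41 that was called lower, so it is left out of the arm's counts. The stretch from 10 to 15 Mb held 82 of the rows and 81 of the genes, and the rest of the arm held 283 rows and 274 genes. The arm and the stretch were chosen by the measured difference between the lines on these same arrays, so their medians and counts are a description and nothing is supported with them. Gene positions are those of GRCh37.

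The study hybridised RNA to 6 Affymetrix whole-transcript arrays, 3 of T24/THP, the pirarubicin-resistant line, and 3 of T24, the human bladder cancer line it came from. Pirarubicin is an anthracycline, a class of drugs that trap topoisomerase II on DNA. T24/THP had been exposed to it for 24 h at a time, at concentrations raised in steps between 5 and 1000 ng/ml over more than 6 months, and was dosed again every 2 to 3 weeks to hold its resistance, while T24 was kept in culture in parallel. Only 1 resistant line was raised, so p-values speak for the spread among 3 samples a line, which the labels call biological replicates, and not for repeated selections.

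The short arm of chromosome 12 carries several clusters of related genes. Between 10 and 15 Mb lie the natural killer gene complex, whose lectin-like receptors and ligands govern natural killer cells, and beside it the bitter taste receptor genes interleaved with genes of salivary proline-rich proteins. Further along the same stretch lie genes of growth control: ETV6, a transcriptional repressor of the ETS family, CDKN1B, the cyclin-dependent kinase inhibitor p27, LRP6, a Wnt co-receptor, and EMP1, a membrane protein of epithelia. Outside it the arm holds the cell cycle genes CCND2 and FOXM1, the glycolytic genes GAPDH and TPI1, and the complement proteases C1R and C1S.

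The 300 bases around the annotated start of 4 genes are printed because these genes stand for the directions found on the arm: GABARAPL1 and TAS2R10 were higher in T24/THP within 10 to 15 Mb, EMP1 was the gene of that stretch with the largest negative difference above background in both lines, and NCAPD2 was lower elsewhere on the arm. Each runs from 250 bases before to 50 after the start, as given by RefSeq for GRCh38.p14, and capitals mark matches to the motifs described with the promoters further on.
GABARAPL1, chr12:10212627-10212926, + strand: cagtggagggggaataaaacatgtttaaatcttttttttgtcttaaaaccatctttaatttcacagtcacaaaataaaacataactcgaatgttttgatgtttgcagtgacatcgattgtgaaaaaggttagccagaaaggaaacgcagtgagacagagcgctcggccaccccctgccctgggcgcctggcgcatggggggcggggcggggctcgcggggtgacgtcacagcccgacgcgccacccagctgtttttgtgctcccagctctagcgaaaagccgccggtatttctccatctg
TAS2R10, chr12:10826309-10826608, - strand: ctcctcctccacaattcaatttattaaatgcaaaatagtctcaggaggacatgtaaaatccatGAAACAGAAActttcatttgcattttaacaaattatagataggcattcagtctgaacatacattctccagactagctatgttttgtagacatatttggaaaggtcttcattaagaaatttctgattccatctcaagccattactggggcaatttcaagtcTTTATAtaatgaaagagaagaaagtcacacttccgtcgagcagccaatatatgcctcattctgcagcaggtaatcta
EMP1, chr12:13196476-13196775, + strand: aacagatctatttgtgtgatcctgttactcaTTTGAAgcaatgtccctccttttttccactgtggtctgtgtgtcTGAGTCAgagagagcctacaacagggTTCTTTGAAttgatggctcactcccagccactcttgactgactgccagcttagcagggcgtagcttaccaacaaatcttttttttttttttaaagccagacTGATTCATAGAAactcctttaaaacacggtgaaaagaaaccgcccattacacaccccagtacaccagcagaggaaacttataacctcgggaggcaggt
NCAPD2, chr12:6493852-6494151, + strand: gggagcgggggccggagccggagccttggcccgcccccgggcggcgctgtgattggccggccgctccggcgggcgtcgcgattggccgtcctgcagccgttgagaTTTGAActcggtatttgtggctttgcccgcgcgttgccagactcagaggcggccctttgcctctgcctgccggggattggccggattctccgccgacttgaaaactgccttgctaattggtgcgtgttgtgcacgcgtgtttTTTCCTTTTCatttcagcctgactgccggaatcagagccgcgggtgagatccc

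Values are log2 intensities, and a difference is T24/THP minus T24 on that scale. A gene was called when limma's adjusted p over all 24930 genes was under 0.05 and the difference was at least 1 in size, that is 2-fold. The upper bound of the background was 5.51 in T24/THP and 5.54 in T24, the brightest of 23 background control probe sets averaged over a line's arrays, and a single bright control probe set on T24 replicate 3, at 6.38, raised the T24 bound. Genes whose mean over all 6 arrays reached 5.52 are called brighter genes here. On the arm 139 of 355 genes, or 39.2%, were brighter, against 46.5% on the long arm and 40.7% of all genes, and 209 lay within the background in both lines. Array medians over genes were 4.49 to 4.59, and arrays correlated at 0.9967 to 0.9984 within a line and at 0.977 to 0.981 between lines. Of 15 urothelial and epithelial markers KRT7, KRT8 and KRT18 stood above background in both lines, while UPK1A, UPK1B, UPK2, UPK3A, GATA3, PPARG, FOXA1, KRT20, KRT5, KRT19, EPCAM and CDH1 did not. The log2 levels of all 15 markers summed to 86.6 to 87.0 in T24/THP and 86.3 to 86.7 in T24. All 8 leukocyte markers lay within the background in both lines, which bears on the natural killer receptor genes of the arm. So did 7 of 7 fibroblast and muscle markers and 4 of 5 endothelial ones, all but CDH5, which averaged 13.12 in T24/THP and 12.30 in T24. Of 6 mesenchymal markers 5 were above background in both lines, with VIM called higher in T24/THP (3.51) and SNAI2 called lower (-1.002). Their part in the results was not tested. In bulk samples such as these a smaller share of cells with a transcript and less of it in each cell cannot be told apart.

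Across the arm 14 genes were called higher and 7 lower in T24/THP, or 3.94% and 1.97% of its 355 genes, and of all 24930 genes 2.85% were called higher and 3.77% lower. Within 10 to 15 Mb 7 genes were called higher and 0 lower, where 5 were lower by adjusted p alone. The remaining 274 genes held 7 called higher and 7 called lower. By adjusted p alone 74 genes of the arm were higher and 43 lower, against 15.1% higher and 18% lower among all genes. Tested against a 2-fold difference itself, 8 were higher and 3 lower, where all genes gave 1.43% and 1.53%. All 3 T24/THP arrays lay above all 3 T24 arrays for 105 genes and below them for 60, where all genes gave 22% and 23.2%.

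Along the arm the differences varied with position. Over brighter genes the median difference was 0.40 at 10 to 15 Mb (24 genes, middle range 0.20 to 0.93) and 0.0053 over the 115 brighter genes elsewhere on the arm, against -0.06 on the long arm and -0.09 over all 10145 brighter genes. Over all genes, dim ones included, the medians were 0.15 in the stretch, 0.0259 on the rest of the arm, 0.0112 on the long arm and 0.0102 in the whole table. The long arm's median over brighter genes also turned positive under quantile normalization (0.0138) and with a level trend removed (0.0060), and the stretch's fell to 0.27 with an offset of 32 on the linear values. At 10 to 15 Mb 19 of the 24 brighter genes lay above 0 and 5 below it, while the rest of the arm split into 58 above and 57 below. Taken array by array against the T24 mean, the median of the 24 genes was 0.42, 0.41 and 0.35 on the T24/THP arrays, against 0.01, -0.03 and -0.01 on the T24 arrays. The lines did not overlap in this value. Nor did they over all 10145 brighter genes. There the T24/THP arrays had -0.10, -0.06 and -0.09, and the T24 arrays had -0.05, 0.0014 and 0.06. The same median over the 115 other brighter genes of the arm was -0.02, 0.0017 and 0.04 on the T24/THP arrays, against -0.05, 0.0041 and 0.06 on the T24 arrays, so the lines overlapped there.

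In steps of 5 Mb from the telomere the median of brighter genes was -0.27 at 0 to 5 Mb (21 genes), 0.08 at 5 to 10 Mb (44 genes), 0.40 at 10 to 15 Mb, 0.15 at 15 to 20 Mb (7 genes), -0.12 at 20 to 25 Mb (8 genes), 0.03 at 25 to 30 Mb (20 genes) and 0.10 at 30 to 35 Mb (15 genes). The step with the lowest median held 4 of the 7 genes called lower, FOXM1, RHNO1, TSPAN9 and RAD51AP1. Finer steps of 1 Mb gave 0.05 at 9 to 10 Mb, then 0.92, 0.55, 0.34, 0.23 and 0.68 between 10 and 15 Mb, then 0.81 at 15 to 16 Mb and -0.46 at 16 to 17 Mb, each over 2 to 6 brighter genes. The raised medians began at the 10 Mb edge and ran past the 15 Mb edge, and single genes weigh heavily in steps this small. Taste receptor, PRR4, pseudogene, antisense and miRNA-named rows set apart, an alternative chosen after seeing the data, the stretch kept 17 brighter genes, 13 above 0 and 4 below, with a median of 0.26.

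**Figure D1:**
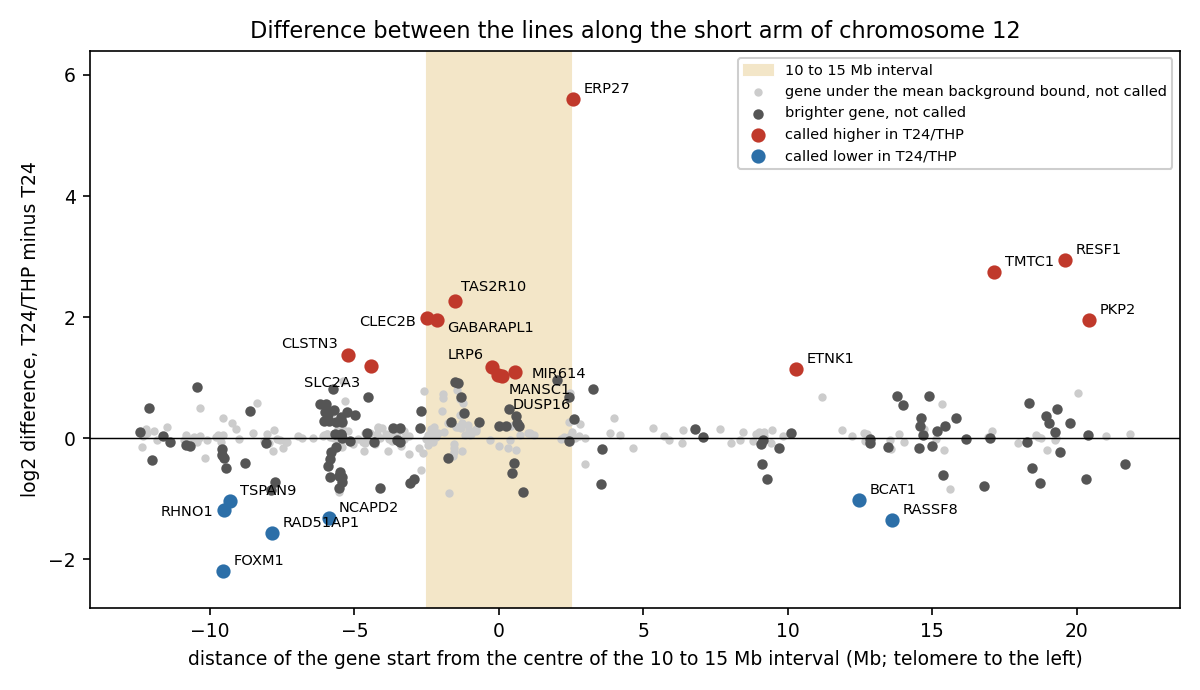
Difference between the lines (log2, T24/THP minus T24, vertical axis) for the 355 genes of the short arm against the distance of the gene start from the centre of the 10 to 15 Mb interval (Mb, horizontal axis), with red points called higher, blue points called lower, dark points brighter genes and pale points genes under the background bound. The 7 red points inside the shaded interval have no blue point beside them, ERP27 at 5.60 stands just past its right edge, and 4 of the 7 blue points lie near the telomere on the left.

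At the telomeric edge of the stretch the largest differences were those of CLEC2B and GABARAPL1, genes near each other at chr12:10004968-10022735 and chr12:10365404-10375727. CLEC2B, a C-type lectin-like ligand of the natural killer receptor NKp80 and an interferon-inducible gene of the fixed list, gave 8.02, 8.44 and 8.47 in T24/THP, against 6.34, 6.24 and 6.37 in T24. The lines lay well apart, and CLEC2B rose by 1.99 ± 0.122 (SE), or 3.98-fold, with a limma adjusted p of 1.91e-05. GABARAPL1, an autophagosome protein of the ATG8 family, gave 8.42, 8.68 and 8.53 in T24/THP, against 6.84, 6.37 and 6.55 in T24, and rose by 1.96 ± 0.126, or 3.88-fold (adjusted p 2.45e-05 in the same limma fit). On the telomeric side of the edge the neighbouring brighter genes LOC374443 and CLEC2D, a lectin-like ligand of the natural killer receptor CD161, had differences of 0.17 and 0.45 and were not called.

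CLEC2B was the only gene called among 28 measured natural killer receptor and C-type lectin genes of the arm, of 29 listed, while 7 were higher by adjusted p alone and 0 lower. Among all genes 15.1% were higher and 18% lower by adjusted p alone. The median difference of the 28 was 0.07, against 0.01 over all genes, and 26 of them lay within the background in both lines. KLRC3 and KLRC2, activating receptors of natural killer cells, had differences of 0.73 and 0.66 at mean levels of 4.46 and 4.27 in T24/THP, against 3.73 and 3.61 in T24. Those levels are within the background, so no fold is given, and the probes of these near-identical genes may share signal. Beyond them came MAGOHB, a core protein of the exon junction complex, with a difference of -0.32, and YBX3, a cold shock domain protein and one of the brightest genes of the stretch, with 13.24, 13.37 and 13.34 in T24/THP, against 13.04, 13.00 and 13.08 in T24. Its difference of 0.28 was small although the lines did not overlap. STYK1, a kinase-like membrane protein between MAGOHB and YBX3, gave 4.71, 4.59 and 4.74 in T24/THP, against 5.34, 5.87 and 5.55 in T24, a difference of -0.90 that was not called. Without T24 replicate 1 STYK1 was called lower, and it was then the 1 gene called lower in the stretch.

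The bitter taste receptor and proline-rich protein genes follow next along the stretch. Of 21 measured members TAS2R10 was called higher and 0 lower, 8 were higher by adjusted p alone, and 16 lay within the background in both lines. The median difference was 0.22, against 0.15 over all genes of the stretch and 0.01 over all genes. TAS2R10, a broadly tuned bitter receptor encoded at chr12:10977916-10978957, gave 6.59, 5.49 and 6.35 in T24/THP, against 3.97, 3.68 and 3.98 in T24. Replicate 2 of T24/THP was the low one, at the background bound, and all 3 T24 values were below the bound. TAS2R10 rose by 2.26 ± 0.263 (adjusted p 0.000387, limma), which against the T24 bound is at least 1.52-fold.

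PRR4, a proline-rich protein of salivary and lacrimal glands, gave 6.53, 6.55 and 6.33 in T24/THP, against 5.58, 5.81 and 5.25 in T24, a difference of 0.92 that stayed short of 2-fold except without T24 replicate 2, when it was 1.05. The row named TAS2R14 gave 7.76, 7.42 and 7.50 in T24/THP, against 6.76, 6.76 and 6.43 in T24, a difference of 0.91. That row runs over chr12:11090007-11324224 and so spans other taste receptor genes, among them TAS2R50, TAS2R20, TAS2R19, TAS2R31, TAS2R46, TAS2R43 and TAS2R30. The differences of TAS2R20, TAS2R31, TAS2R43 and TAS2R30, at 0.65, 0.68, 0.58 and 0.42, are therefore not separate measurements of separate loci with any certainty. Over the 21 measured members of the group the differences ran from -0.22 to 2.26. The receptors within the span of that row are close in sequence. TAS2R31 was short of 2-fold and also missed the threshold on the limma adjusted p, at 0.0508. No member but TAS2R10 was called.

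The centre of the stretch held LRP6, MANSC1 and DUSP16, which lie between chr12:12268959 and chr12:12715448 and were all called higher. BORCS5, part of the complex that positions lysosomes, lies between MANSC1 and DUSP16 and was not called, with a difference of 0.20 and a limma adjusted p of 0.0971. LRP6, which pairs with Frizzled receptors to receive Wnt signals, gave 11.04, 10.90 and 11.05 in T24/THP, against 9.78, 9.71 and 9.97 in T24, and rose by 1.18 ± 0.084, or 2.26-fold (limma adjusted p 3.63e-05). MANSC1, a membrane protein named for its MANSC domain, gave 10.53, 10.67 and 10.77 in T24/THP, against 9.64, 9.73 and 9.48 in T24, and was 2.06-fold higher. DUSP16, a phosphatase that switches off the stress kinase JNK, gave 5.79, 6.00 and 6.15 in T24/THP, against 4.84, 4.90 and 5.11 in T24, where it lay within the background, so its rise of 1.03 was at least 1.36-fold. None of the 3 called genes overlapped between the lines. MANSC1 slipped to 0.99 without T24/THP replicate 3 and to 0.98 without T24 replicate 3, and DUSP16 to 0.94 without T24/THP replicate 3, to 0.98 without T24 replicate 1 and to 0.60 with an offset of 32 on the linear values, all of which end the call.

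ETV6 and CDKN1B, on either side of them, had smaller differences. ETV6, at chr12:11802788-12048325, gave 12.96, 12.95 and 12.83 in T24/THP, against 12.71, 12.64 and 12.61 in T24, a difference of 0.26. CDKN1B, at chr12:12867992-12875305, gave 8.52, 8.59 and 8.68 in T24/THP, against 8.10, 8.08 and 8.16 in T24, a difference of 0.48 ± 0.063 or 1.40-fold (limma adjusted p 0.000692). Both genes were higher without overlap of the lines and both stayed under 2-fold. CREBL2, a bZIP transcription factor next to CDKN1B, had a difference of 0.21 with a limma adjusted p of 0.0954. Of 8 growth control genes measured in the stretch, out of 9 listed, LRP6 and DUSP16 were called higher and 0 lower. By adjusted p alone 5 were higher and 2 lower, and the differences ran from -0.90 to 1.18. The median of the 8 was 0.27, against 0.15 over all genes of the stretch and 0.01 over all genes.

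Towards the centromere the signs were mixed. DDX47, an RNA helicase of ribosome assembly, had a difference of -0.57, and the pseudogene RPL13AP20, whose sequence is close to that of the ribosomal protein gene RPL13A, one of -0.41. A row named MIR614 was called higher, with 10.88, 10.81 and 10.76 in T24/THP, against 9.59, 9.79 and 9.78 in T24, a difference of 1.10 or 2.14-fold. This row spans 27.2 kb at chr12:13043716-13070871, while the MIR614 hairpin has 90 bases and lies within GPRC5A, a gene of 26.4 kb for a retinoic acid-induced receptor, in RefSeq. The value is therefore given under the name in the file and not read as that of the miRNA. GPRC5D-AS1, HEBP1, a heme-binding protein, and FAM234B followed with 0.37, 0.25 and 0.20.

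EMP1, a membrane protein of the PMP22 family, ran against its neighbours. It was the brightest of the 24 brighter genes, at 14.36, 14.42 and 14.27 in T24/THP, against 15.26, 15.21 and 15.25 in T24. All 3 T24/THP arrays lay below all 3 T24 arrays, and the difference of -0.89 ± 0.060 (limma adjusted p 2.98e-05) was 1.85-fold, short of the 2-fold that a call needs. ATF7IP, a cofactor of the histone methyltransferase SETDB1 which lies farther along at chr12:14518611-14651697, gave 12.35, 12.33 and 12.25 in T24/THP, against 11.49, 11.40 and 11.16 in T24. Its difference of 0.96 ± 0.090 was 1.94-fold, and it was called under quantile normalization (1.085), after a level-dependent trend was taken out of the differences (1.11) and without T24 replicate 1 (1.03). H2AJ, a histone H2A variant, had a difference of 0.68, and WBP11, a splicing factor, one of -0.05 that turned positive under 3 alternatives.

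**Figure D2:**
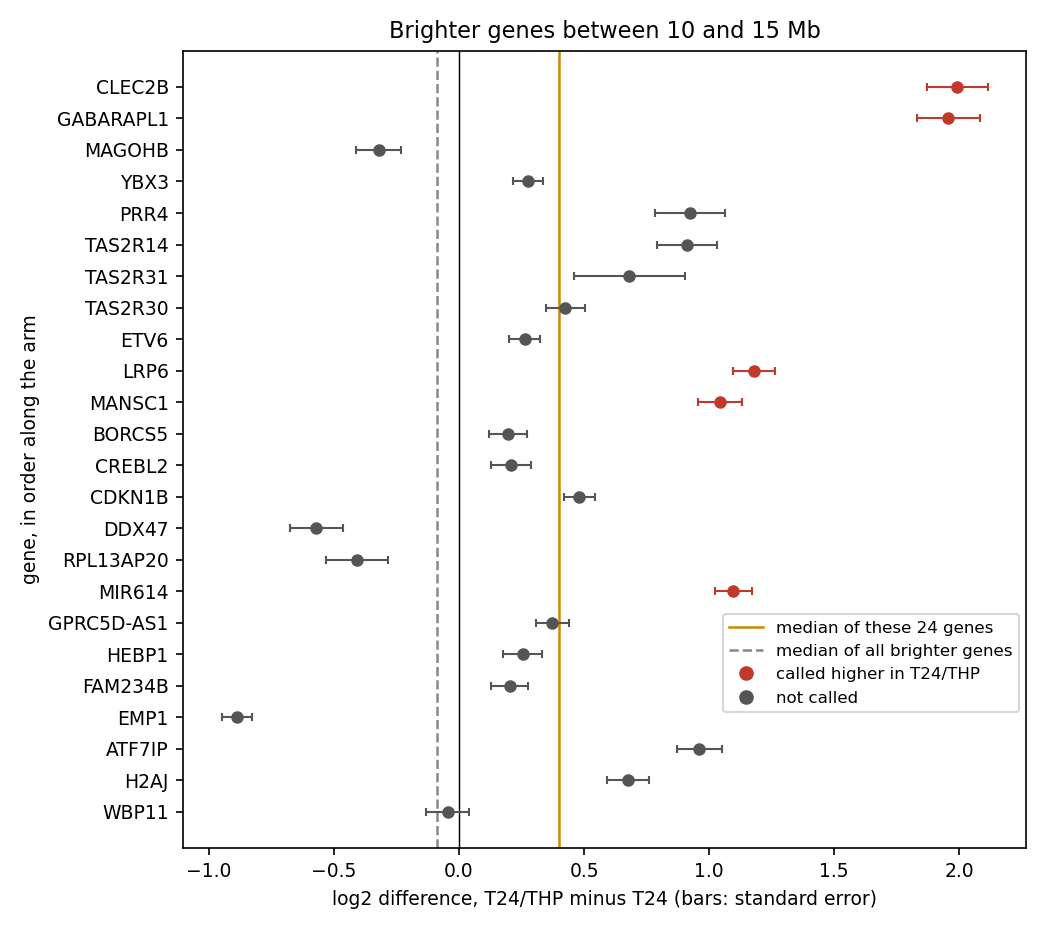
Difference between the lines (log2, T24/THP minus T24, horizontal axis) for the 24 brighter genes at 10 to 15 Mb, in order along the arm from top to bottom, with bars for the standard error (n = 3 arrays a line), red for genes called higher, a solid line at the median of these genes and a broken line at the median of all brighter genes. CLEC2B and GABARAPL1 stand out at the top, 19 points lie right of 0, and EMP1 at -0.89 and DDX47 at -0.57 are the farthest left.

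The 57 genes of the stretch under the mean background bound had a median difference of 0.08, with 41 above 0 and 16 below. TAS2R10 is among them because the mean over all arrays falls under the bound, as is DUSP16, and both were the only ones called. At mean levels from 4 to 6 the 21 genes of the stretch had a median of 0.28, against 0.04 over all genes at those levels. At levels from 6 to 8 the medians were 0.92 over 6 genes of the stretch and -0.07 over all genes, and at 8 to 10 they were -0.03 over 4 genes and -0.12. At 10 to 12 they were 1.04 over 5 genes of the stretch and -0.15 over all genes, and above 12 they were -0.07 over 4 genes and -0.16. The medians of these few genes followed no order with level.

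Just past 15 Mb came the largest difference of the whole arm. ERP27, a protein disulfide isomerase relative of the endoplasmic reticulum that binds the oxidoreductase ERp57, starts at chr12:15066969 and gave 9.90, 10.07 and 10.37 in T24/THP, against 4.51, 4.41 and 4.62 in T24, all within the background there. Its measured difference of 5.60 ± 0.122 (limma adjusted p 3.08e-07) stood far outside the spread of either line, and against the T24 bound the rise was at least 23.9-fold. Next to it ARHGDIB gave 12.15, 12.30 and 11.83 in T24/THP, against 11.65, 11.89 and 11.76 in T24, and the lines overlapped. EPS8, an actin regulator in growth factor signalling, had a difference of 0.81 and was not called. STRAP, which assembles the SMN complex, and DERA, a deoxyribose-phosphate aldolase, came beyond 16 Mb with -0.75 and -0.18. At the far limit of the arm the last brighter genes before 35 Mb were PKP2 and ALG10, with 1.95 and -0.43, and the first beyond it were RNA5SP358 and ALG10B, with 0.47 and -0.39.

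Outside the stretch the other genes called higher lay singly along the arm. RESF1, a retroelement silencing factor that works with SETDB1, at chr12:32112353-32146043, gave 11.88, 11.64 and 12.26 in T24/THP, against 9.18, 8.79 and 8.96 in T24, and rose by 2.95 ± 0.164 or 7.72-fold (limma adjusted p 1.27e-05). TMTC1, which adds mannose to cadherins in the endoplasmic reticulum, at chr12:29653746-29937692, gave 7.20, 7.54 and 7.14 in T24/THP, against 4.53, 4.43 and 4.69 in T24, where it was within the background, so its rise of 2.74 was at least 3.38-fold. Both stood clear of the spread between arrays. PKP2, a plaque protein of desmosomes, at chr12:32943679-33049780, gave 9.93, 10.05 and 10.16 in T24/THP, against 7.91, 8.15 and 8.23 in T24, and rose 3.87-fold.

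CLSTN3, a calsyntenin adhesion protein, averaged 8.66 ± 0.03 in T24/THP and 7.28 ± 0.15 in T24 (SD, n = 3 each), 2.60-fold higher. SLC2A3, the glucose transporter GLUT3, averaged 9.67 ± 0.10 in T24/THP and 8.47 ± 0.15 in T24, 2.29-fold higher. Its near-identical neighbour SLC2A14 had a difference of 0.67, and the probes of the pair may share signal. ETNK1, the ethanolamine kinase that starts phosphatidylethanolamine synthesis, averaged 9.35 ± 0.09 in T24/THP and 8.20 ± 0.17 in T24, 2.21-fold higher. None of these 3 genes overlapped between the lines.

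The genes called lower were led by cell cycle and DNA repair genes. FOXM1, the transcription factor that drives late cell cycle genes, at chr12:2966847-2986321, gave 8.95, 8.93 and 8.83 in T24/THP, against 10.85, 11.20 and 11.25 in T24, and fell by 2.20 ± 0.108, or 4.58-fold (limma adjusted p 7.68e-06). RHNO1, a partner of the checkpoint clamp that starts beside FOXM1 at chr12:2986365, gave 8.78, 8.72 and 8.73 in T24/THP, against 9.86, 10.09 and 9.81 in T24, and fell by 1.18. The T24/THP arrays were lower without overlap for both neighbours. RAD51AP1, which takes part in homologous recombination, gave 6.69, 6.69 and 6.71 in T24/THP, against 8.04, 8.35 and 8.39 in T24, a fall of 1.56 or 2.96-fold. NCAPD2, a subunit of condensin I, gave 11.50, 11.45 and 11.31 in T24/THP, against 12.58, 12.84 and 12.79 in T24, a fall of 1.32 or 2.49-fold.

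Of 17 cell cycle and DNA repair genes of the arm these 4 were called lower and 0 higher, and by adjusted p alone 8 were lower and 4 higher. By adjusted p alone 3787 of all 10145 brighter genes were lower and 2655 higher. The median difference of the 17 was -0.22, against 0.01 over all genes and -0.09 over all brighter genes. Of the 17, 14 lay above the background in both lines. Among the other members DDX11, a helicase of sister chromatid cohesion, and RECQL, a RecQ helicase, had differences of -0.74 and -0.42. On the other side ING4, a reader of histone methylation, KDM5A, a histone demethylase, and CDKN1B had 0.81, 0.50 and 0.48. CCND2, cyclin D2, lay within the background in both lines with a difference of -0.04.

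RASSF8, a RAS association domain protein, at chr12:26111962-26232825, gave 6.72, 6.55 and 6.73 in T24/THP, against 7.92, 8.02 and 8.12 in T24, and fell by 1.35, or 2.55-fold. The lines did not overlap.

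TSPAN9, a tetraspanin, and BCAT1, the cytosolic transaminase of branched-chain amino acids, were called lower by narrow margins. TSPAN9 averaged 6.43 ± 0.09 in T24/THP and 7.47 ± 0.14 in T24, a difference of -1.04, and BCAT1 averaged 7.87 ± 0.04 in T24/THP and 8.89 ± 0.11 in T24, a difference of -1.02 (SD, n = 3 each). Without T24/THP replicate 3 TSPAN9 came to -0.99 and without T24 replicate 3 to -0.96, while BCAT1 came to -0.998 without T24/THP replicate 2, to -0.98 without T24 replicate 1 and to -0.99 without T24 replicate 3. Quantile normalization, the level trend and the offset also took both under 2-fold, to between -0.82 and -0.99.

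**Figure D3:**
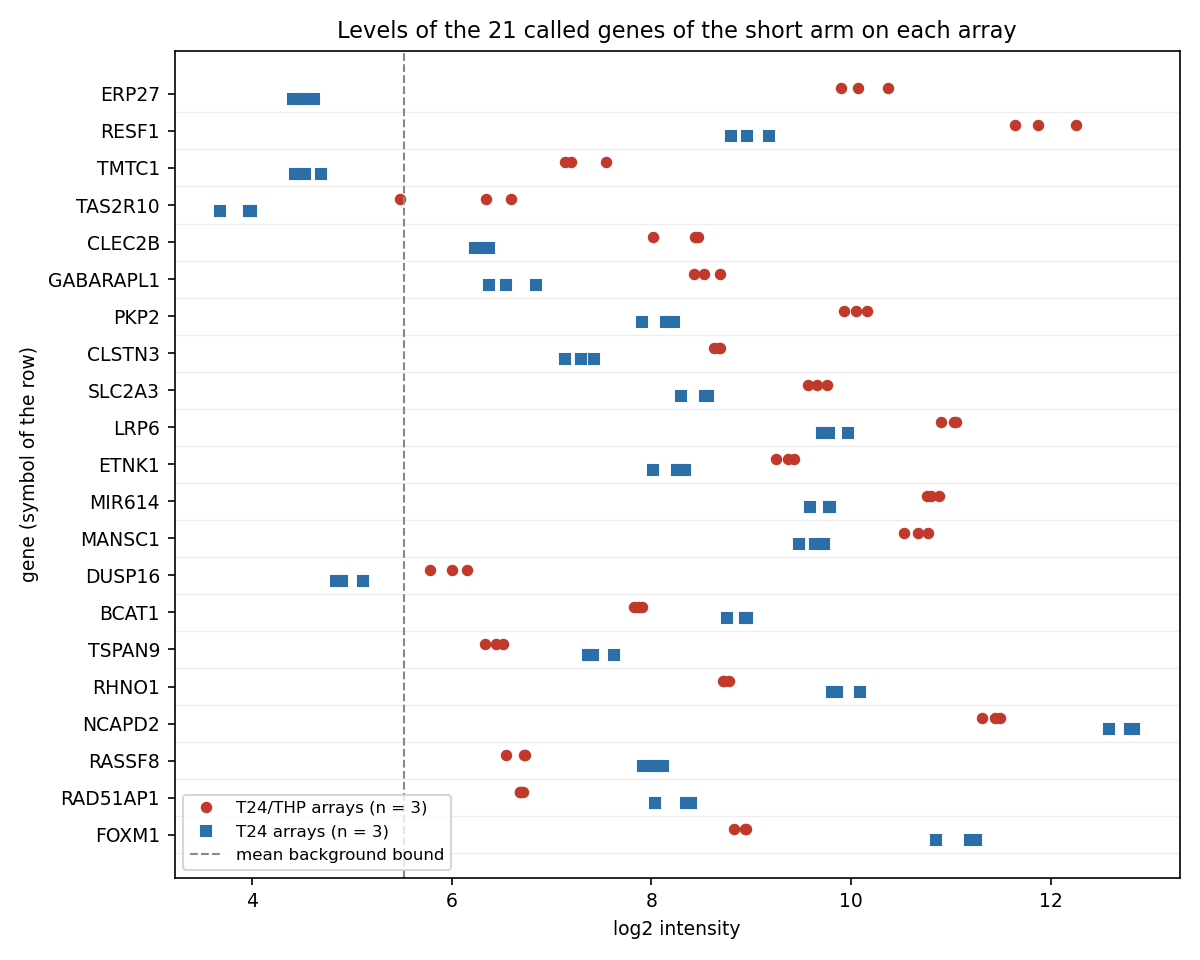
Log2 intensity (horizontal axis) of the 21 called genes of the short arm on every array, ordered from the largest rise to the largest fall, with circles for the 3 T24/THP arrays, squares for the 3 T24 arrays and a broken line at the mean background bound. Circles and squares do not overlap in any row, and ERP27, TMTC1, TAS2R10 and DUSP16 have all their T24 squares left of the line.

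Other gene groups of the arm showed few calls. Of 8 mitochondrial protein genes 0 were called, but 5 were lower and 0 higher by adjusted p alone. By that measure 3787 of all 10145 brighter genes were lower and 2655 higher. The median of the 8 was -0.53, against 0.01 over all genes and -0.09 over all brighter genes. Of the 8, 7 lay above the background in both lines. NDUFA9, a subunit of respiratory complex I, had a difference of -0.72, DNM1L, the GTPase that divides mitochondria, -0.67, PHB2, prohibitin 2, -0.64, and the mitochondrial ribosomal proteins MRPS35 and MRPL51 -0.61 and -0.46. Of 8 glucose uptake and glycolysis genes SLC2A3 was called higher and 0 lower, with a median of -0.02. GAPDH gave 16.86, 16.93 and 16.82 in T24/THP, against 17.15, 17.24 and 17.23 in T24, a difference of -0.34, and TPI1 and LDHB, the enzymes of triose isomerisation and lactate oxidation, had -0.82 and -0.68.

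Of 8 interferon-inducible genes of the arm CLEC2B was called higher and 0 lower, 7 were higher by adjusted p alone, and the median was 0.54, against 0.01 over all genes. Among all genes 15.1% were higher by adjusted p alone. C1S gave 5.44, 5.56 and 5.64 in T24/THP, against 4.70, 4.59 and 4.51 in T24, a difference of 0.95 (limma adjusted p 6.32e-05) around the background bound that reached 1.002 without T24/THP replicate 1. C1R, its partner protease, had 0.62 within the background, PARP11, a mono-ADP-ribosyltransferase, had 0.46, and TAPBPL, the peptide editor TAPBPR, had 0.45. The list was drawn up with an interferon response in these lines already known, so its direction is not independent evidence. Among 9 complement, alpha-2-macroglobulin and scavenger receptor genes 0 were called and the median was 0.04.

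Of 3 tumour necrosis factor receptor genes 0 were called and 2 were higher by adjusted p alone. LTBR, the lymphotoxin beta receptor, gave 7.91, 7.89 and 7.92 in T24/THP, against 7.44, 7.51 and 7.48 in T24, a difference of 0.43, and TNFRSF1A, the first TNF receptor, had 0.28. The 9 genes of drug and organic anion handling all lay within the background in both lines, ABCC9, an ABC protein of potassium channels, with a difference of 0.14 and MGST1, a microsomal glutathione transferase, with 0.33. Of 15 membrane and retinoid-inducible protein genes, out of 16 listed, MANSC1, TMTC1, LRP6 and CLSTN3 were called higher and TSPAN9 lower, with a median of 0.07. For 13 genes of RNA binding, transcription and nuclear import, 10 ion channel genes and 5 stem cell genes 0 were called, and their medians were 0.01, 0.01 and -0.03. For the lists in this paragraph and the 2 before it, as for all lists, 6.62% of all genes were called in either direction. By adjusted p alone 15.1% of all genes were higher and 18% lower.

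Transcript clusters without a gene symbol were read as further probes of the same stretches on the same arrays. At 10 to 15 Mb 91 such clusters included 20 brighter ones with a median difference of 0.40, 15 above 0 and 5 below, and 9 were called higher and 1 lower in a fit over all 39171 unnamed clusters, of which 1.74% were called higher and 0.858% lower. The 9 covered 7 intervals, since 2 intervals held a pair of clusters each, and several overlapped the rows of LRP6, H2AJ and MIR614. The 446 on the rest of the arm held 2 called higher and 3 lower, with a median of 0.13 over 61 brighter ones, and over all 5766 brighter unnamed clusters the median was 0.17. A cluster at chr12:10516368-10551105, on the strand opposite to KLRC4, gave 6.94, 7.08 and 7.77 in T24/THP, against 5.37, 5.09 and 5.14 in T24, a difference of 2.06. A cluster at chr12:14915441-14920865, between genes, had a difference of 1.99, and one at chr12:13068126-13070865, within the span of the row named MIR614 and on its strand, had 1.37. The single cluster called lower in the stretch, at chr12:12264886-12264967, carried on every array the values of a MIR1244-1 row at chr12:9392066-9392147 and of another on chromosome 5, so its -1.41 cannot be placed at any of the 3 loci.

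Several unnamed clusters that were themselves called lay on the same strand within called genes and had the direction of that gene. Unnamed clusters of these genes that were not called were not compared. Those within ETNK1, SLC2A3 and LRP6 had differences of 2.47, 1.40 and 1.11, and those within RASSF8 and RHNO1 had -1.61 and -1.12. A cluster within TPI1 had -1.14, beyond the -0.82 of the TPI1 row itself.

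Set against the other windows of the genome, the 10 to 15 Mb stretch ranked 18 of 397 windows of 5 Mb with at least 10 brighter genes. The highest window, at 25 to 30 Mb of chromosome 15, had a median of 0.84. The next window of chromosome 12 in that order was 45 to 50 Mb on the long arm, at rank 67 with a median of 0.12, and the 0 to 5 Mb window of the short arm ranked 316. On the long arm 26 of 894 genes were called higher and 29 lower, and the 416 brighter genes split into 187 above 0 and 229 below. The ranks describe medians that were themselves used to choose the stretch.

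**Figure D4:**
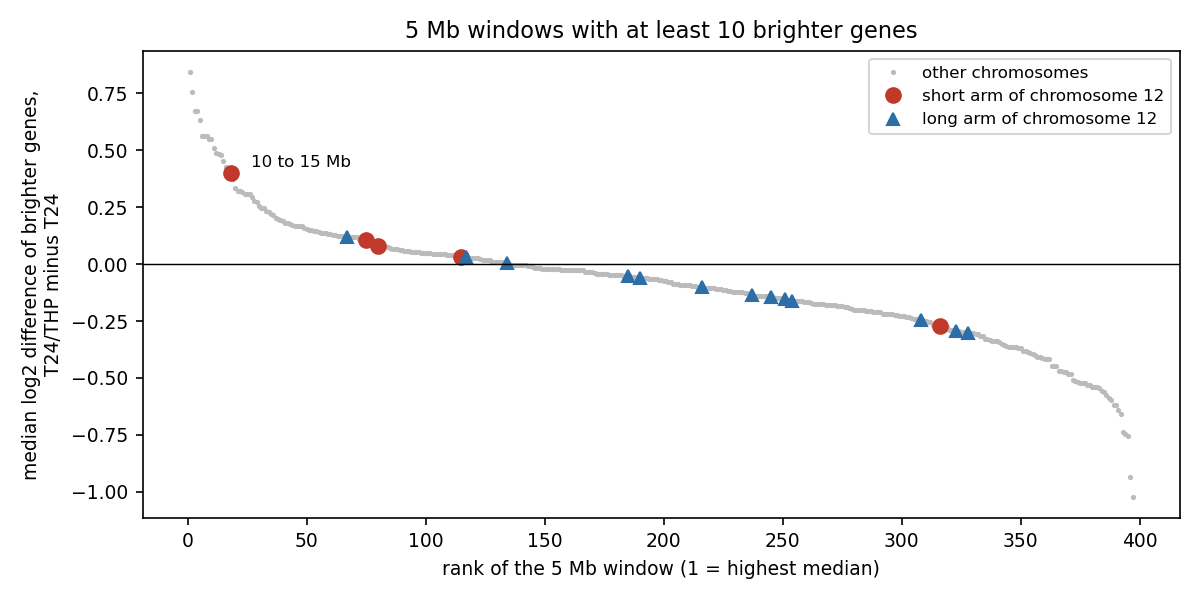
Median log2 difference of brighter genes (T24/THP minus T24, vertical axis) in 397 windows of 5 Mb ordered from highest to lowest (rank, horizontal axis), with circles for the short arm of chromosome 12, triangles for its long arm and pale dots for other chromosomes. The 10 to 15 Mb window stands at rank 18 with 0.40, and the other windows of chromosome 12 run from rank 67 to rank 328.

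The promoters of the stretch differed in base composition from those of other genes. Of the 355 genes 224 had a RefSeq promoter entry, including 46 of the stretch. For a gene with several entries the highest number of CpG dinucleotides per 300 bases was taken. This number had a median of 4 in the stretch, 18 on the whole arm and 24 over 16350 genes. Within the stretch it was 18.5 for 16 brighter genes and 2 for 30 dimmer ones, a group with many taste receptor and lectin-like genes. GABARAPL1 had 18 CpG and TAS2R10 had 2, while EMP1 had 4 and NCAPD2 had 31, as can be read from the sequences printed above.

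The promoters were searched on both strands for 6 motifs. A gene was counted when any of its promoter entries matched, and some genes had several. The TATA box TATAAA stood in 41.3% of the genes of the stretch with an entry. It stood in 20.5% of such genes of the arm and in 12.3% of all genes with an entry. Within the stretch it stood in 25% of brighter and 50% of dimmer genes. The gamma-activated motif TTCNNNGAA stood in 28.3%, 13.4% and 9.06%, the interferon response motif (GAAA, any 2 bases, GAAA) in 8.7%, 4.02% and 4.14%, the AP-1 motif TGANTCA in 8.7%, 11.2% and 8.36%, the E2F motif TTTNGCGC in 0%, 2.68% and 2.82%, and the cell cycle homology motif TTTGAA in 28.3%, 22.8% and 16% in the same order. Within the stretch the gamma-activated motif stood in 4 of 16 brighter and 9 of 30 dimmer genes. The interferon response motif stood in 1 of these 16 and 3 of these 30. Among the 7 genes called higher with an entry, TAS2R10 held the interferon response motif 187 bases before the start and a TATA box on the reverse strand 27 bases before it, and GABARAPL1 held none of the 6. The gamma-activated motif stood in 0 of these 7 genes. EMP1 held the AP-1 motif 175 and 48 bases before its start, the gamma-activated motif 149 and 45 bases before it and the cell cycle homology motif 219 and 146 bases before it, some of which overlap one another. NCAPD2, of the 3 genes called lower with an entry, held the cell cycle homology motif 145 bases before its start and the interferon response motif on the reverse strand 3 bases before it. A match is a description of letters in a window and not of a bound factor.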

How the data were processed

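Total RNA of 3 T24/THP and 3 T24 samples was, per the labels' protocols, amplified and biotin-labelled with reagents of the WT PLUS kit. The authors deposited 1 log2 intensity for each transcript cluster on each array. The submitters' processing notes list Affymetrix Expression Console, with no version, and the normalization algorithm was not given in the sources used here. GRCh37 is named in the deposited table's text. All value columns could be matched to labels.

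Of 65854 annotated clusters 26515 carry 1 symbol. Symbols were updated through RefSeq names of GRCh38.p14, by accession for 22670 rows, as a current symbol for 2000 and by synonym for 922, and 923 stayed as deposited. A gene with several clusters was read from its brightest over all arrays, and no gene was filtered out. The test was limma's moderated one (version 3.58.1, R 4.3.3) between 2 groups, two-sided, with Benjamini-Hochberg adjustment over 24930 genes. Unnamed clusters were fitted separately in the same way. A fold is given as "at least" where 1 line lay within the background, and not where both did. The number of arrays limits the precision. Summaries and figures used Python 3.11.15, pandas 2.3.3 and matplotlib 3.10.9.

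The arm, its members and the gene lists were chosen with earlier results of these data known. Genes named by rule were the called members with the largest rises and falls, all brighter members at 10 to 15 Mb, up to 2 called members per list and direction, those at the edges, and fixed genes. One of the fixed genes, GPRC5A, had no row under its own name, so no value is given under that name. The row named MIR614, whose hairpin lies within GPRC5A, is given under the name in the file. Some results are not reported here. Every other member named was chosen after its values were seen. Alternatives changed the scaling, the offset, the filter, the threshold, the variance model, the table, the cluster rule, the window edges, the replicate block and each array in turn.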

Additional observations from a re-analysis of the deposited data

How the results depend on the processing

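With no minimum difference 74 genes of the arm were higher and 43 lower in T24/THP, and at 10 to 15 Mb 27 were higher and 5 lower. Tested against a 2-fold difference itself, 8 genes of the arm were higher and 3 lower, and 3 of the stretch were higher. Leaving out single arrays gave 0 to 1 genes called lower in the stretch, STYK1 being the gene gained without T24 replicate 1. The median of brighter genes over the arm, 0.07, was 0.18 under quantile normalization, 0.17 with the level trend removed and 0.15 over unnamed clusters. At 10 to 15 Mb the median of 0.40 became 0.44 with the level trend removed, 0.27 with an offset of 32, 0.15 over all genes of the stretch, 0.32 with the edges moved outward by 1 Mb, 0.32 with them moved inward, 0.26 without taste receptor, PRR4, pseudogene, antisense and miRNA-named rows, and 0.36 to 0.42 without single arrays. On the rest of the arm 0.0053 became 0.0749 under quantile normalization, 0.0687 with the level trend removed, 0.13 over unnamed clusters and -0.0173 with the edges moved outward, and ran from -0.0238 (without T24/THP replicate 3) to 0.0242 without single arrays, with -0.0084 without T24 replicate 2. The long arm's -0.06 turned to 0.0138 under quantile normalization, 0.0060 with the level trend removed, 0.0112 over all its genes and 0.0234 over unnamed clusters. These scalings moved the median of all brighter genes by 0.07. The cause of these changes was not tested.

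Of 698 pairs of a named gene and an alternative 674 kept direction and side of the threshold, 16 lost and 5 gained the call, and 3 reversed, all of WBP11. These pairs leave out the test against a 2-fold difference itself, which kept 8 of 14 genes called higher and 3 of 7 called lower. DUSP16, ETNK1, LRP6, MANSC1, MIR614 and SLC2A3 lost the call there, as did BCAT1, NCAPD2, RHNO1 and TSPAN9. WBP11 reversed to 0.0733 under quantile normalization and 0.10 with the level trend removed, and ran from -0.11 to 0.0360 without single arrays. Same-numbered replicates correlated at 0.0396, 0.151 and 0.0186 in their deviations over all genes. Differently numbered replicates were not set beside them, so these values do not settle whether the numbers pair samples. With the replicate block 14 genes of the arm were called higher and 7 lower, 7 and 0 of them in the stretch, and the medians were the same, 0.0726 over the arm and 0.3993 at 10 to 15 Mb. Of the arm's genes 209 of 355 lay within the background in both lines, where no fold is given.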
